A study of Mus musculus with 460 samples.

Results

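The 9 genes described here belong to bone morphogenetic protein (BMP) signalling: the ligand genes Bmp3, Bmp4, Bmp5 and Gdf10, the antagonist gene Grem1, the receptor gene Bmpr2, and the target genes Id1, Id2 and Id3. They were taken by symbol from a table of 48440 genes, and each was found once. The table holds molecular barcode counts of 460 single cells, labelled as CAFs (cancer-associated fibroblasts) with lung adenocarcinoma as the disease state, from mice of 1 strain. All cells share its genotype, and the labels give no treatment, time, age, animal or culture. With all cells treated as 1 sample no test was possible, and each interval below is a 95% interval that covers counting error only.

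BMPs are secreted dimers of the TGF-beta superfamily. They bind paired type I and type II receptors, of which Bmpr2 encodes a type II receptor, and the type I receptor phosphorylates the proteins of Smad1, Smad5 and Smad9, which enter the nucleus with that of Smad4 and switch on Id genes. Id proteins are helix-loop-helix proteins without a DNA-binding region that hold E proteins away from DNA, and Grem1 encodes gremlin 1, a secreted protein that binds BMPs and keeps them from their receptors. In the lung, Bmp4 is known for its part in branching of the embryonic airways, and BMPR2 is the gene most often mutated in heritable human pulmonary arterial hypertension.

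The cells held 25029 to 240496 counts each, with a median of 88701. Within them, 44.1% of the 460 cells (exact Clopper-Pearson interval 39.5 to 48.8) had more counts of Rgs5, a gene of pericytes, than of Pdgfra, a receptor gene of fibroblasts. The other 55.9% had more Pdgfra, and no cell was tied. This is a cut through a range and not a cell type, and 31 and 37 cells of the 2 sets lay within 2-fold of it. Median totals were 76944 counts in the Rgs5 > Pdgfra cells and 96654 in the others. For shares of cells at equal depth each cell was thinned to 56586 counts, which left out 32 and 14 shallower cells. All 9 pericyte or vascular smooth muscle markers were counted in both sets. Their summed level in single cells ranged from 385.9 to 25616 CPM (counts per 1000000 counts), median 11325, in the Rgs5 > Pdgfra cells, and from 273.98 to 9033, median 1561, in the others. The 8 fibroblast markers, all counted in both sets too, ranged from 1118 to 39755 CPM, median 10641, and from 5061 to 41144 CPM, median 18229. These lists include Rgs5 and Pdgfra, which set the split, so part of this contrast was fixed by the cut. Rgs5 alone was 4620 CPM of the pooled 10230 CPM of its list in the Rgs5 > Pdgfra cells. Ratios of summed-count CPM between the sets ran from 1.29 (Des) to 26.1 (Higd1b) for pericyte markers. For fibroblast markers they ran from 0.0705 (Lum) to 1.15 (Thy1).

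The ligand genes Bmp3, Bmp4 and Gdf10 and the antagonist gene Grem1 were all more than 2-fold lower in the Rgs5 > Pdgfra cells, and Bmp5 lay just short of 2-fold. Id1 was more than 2-fold higher there, whereas Id2, Id3 and Bmpr2 differed by less than 1.5-fold. These are 4 of 9 genes past 2-fold lower and 1 of 9 past 2-fold higher, where 5.26% and 3.98% of the 13975 genes counted in at least 10% of cells lay past those limits. The promoters of Bmp4, Bmp5, Gdf10 and Grem1 are shown because these genes were high in the same set of cells and because at most 1 base of each window lies in an annotated exon. Each is the 250 bases before the RefSeq start on GRCm38.p6, written 5′ to 3′ on the gene's strand. Capitals mark GGCGCC, the core of BMP-responsive elements, and CAGAC or its reverse complement GTCTG, which contain the core of Smad binding sites. They are Bmp4 at chr14:46390670-46390919 (minus strand), Bmp5 at chr9:75775115-75775364 (plus strand), Gdf10 at chr14:33923337-33923586 (plus strand) and Grem1 at chr2:113758649-113758898 (minus strand).
Bmp4: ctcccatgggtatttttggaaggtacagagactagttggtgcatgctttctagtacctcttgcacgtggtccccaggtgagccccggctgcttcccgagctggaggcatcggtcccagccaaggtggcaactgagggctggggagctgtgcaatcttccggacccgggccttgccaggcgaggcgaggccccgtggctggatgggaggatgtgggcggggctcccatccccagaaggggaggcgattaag
Bmp5: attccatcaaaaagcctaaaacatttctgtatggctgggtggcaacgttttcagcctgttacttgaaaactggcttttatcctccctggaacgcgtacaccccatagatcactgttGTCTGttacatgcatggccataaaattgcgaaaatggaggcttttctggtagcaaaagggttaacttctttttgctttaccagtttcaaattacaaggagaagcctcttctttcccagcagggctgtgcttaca
Gdf10: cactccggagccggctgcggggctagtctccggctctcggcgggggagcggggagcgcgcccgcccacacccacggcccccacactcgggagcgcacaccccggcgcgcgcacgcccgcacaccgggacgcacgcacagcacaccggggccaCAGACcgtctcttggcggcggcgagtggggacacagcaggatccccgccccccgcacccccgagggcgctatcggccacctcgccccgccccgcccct
Grem1: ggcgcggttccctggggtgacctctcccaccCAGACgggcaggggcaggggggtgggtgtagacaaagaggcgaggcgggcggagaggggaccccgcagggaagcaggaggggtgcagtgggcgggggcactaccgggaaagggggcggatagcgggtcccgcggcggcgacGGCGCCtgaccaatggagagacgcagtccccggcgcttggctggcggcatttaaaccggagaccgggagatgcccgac
The Grem1 window held GGCGCC, its first base 78 bases before the start, and CAGAC further upstream. Gdf10 had CAGAC at 98 bases before the start, Bmp5 had GTCTG, and Bmp4 had neither motif. Among 32851 mouse promoter windows of the same length, 9.59% held GGCGCC and 42.2% held CAGAC or GTCTG, searched on both strands. GGCGCC reads the same on both strands, and the motifs do not overlap each other. These matches describe letters and not binding.

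The 9 genes spanned a wide range of levels over the 460 cells. Per kilobase of annotated exon, Id3 was highest at 240.3 CPM per kb (236.9 to 243.8, exact Poisson), rank 110 of 13940 genes counted in at least 10% of cells. Bmpr2 followed at 69.7 CPM per kb, then Grem1 at 61.6, Bmp4 at 57.7, Bmp5 at 43.5 and Bmp3 at 18.9. Id2 (9.28 CPM per kb, interval 8.70 to 9.88), Id1 (8.48, 7.68 to 9.33) and Gdf10 (7.35, 6.99 to 7.71) ended the order. In those last levels the intervals of Id2 and Id1 overlapped, as did those of Id1 and Gdf10. How far these counts grow with gene length is not given in the sources used here, so the order rests on the division by length.

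Detection ran from every cell to fewer than 1 in 3. Bmpr2 had a count in all 460 cells and Id3 in 99.6% of them. Bmp5 was counted in 92.8% (interval 90.1 to 95.01), Grem1 in 81.7% (77.9 to 85.2), Bmp4 in 81.1% (77.2 to 84.6), Bmp3 in 62.8% (58.2 to 67.3), Id2 in 50.2% (45.6 to 54.9), Id1 in 30.9% (26.7 to 35.3) and Gdf10 in 29.3% (25.2 to 33.7). All cells are labelled as CAFs, so no cell type that lacks these genes was at hand. Over the same cells, 8 epithelial markers were counted in 5.43% (Epcam) to 80.9% (Sftpc) of cells, 7 endothelial markers in 1.30% (Cldn5) to 25.2% (Vwf) and 6 immune markers in 1.74% (Cd79a) to 42.4% (Cd68). The shares of Gdf10, Id1, Id2 and Bmp3 lie within this range, so a count of these genes in a cell is not read here as expression by that cell.

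Counts of Gdf10 and Bmp3 were held by few cells. For Gdf10, 6 of the 460 cells held 50% of all its counts, and the 46 richest cells held 92.03%. For Bmp3 it took 26 cells to reach 50%, and the 46 richest held 69.9%. Grem1 needed 38 cells, Bmp4 66 and Bmp5 81, while the 46 richest cells held 24.6% of Id3 and 20.3% of Bmpr2 counts. The low Id1 counts (9.83 CPM over all cells) were also uneven, with 50% of them in 27 cells.

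**Figure D1:**
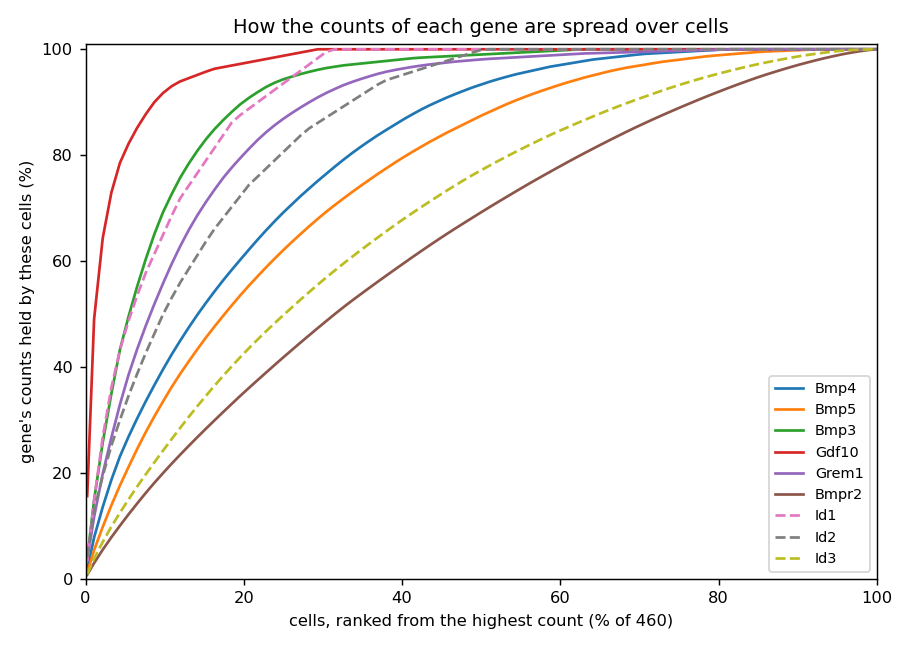
Share of each gene's counts (vertical, %) held by the cells with the most counts of it (horizontal, % of 460 cells, ranked from the highest); dashed lines are the Id genes. Gdf10 climbs steepest, with 92.03% of its counts in the top 46 cells, and Bmpr2 lies lowest, with 20.3%.

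Bmp4, whose product is a classical activating BMP, lies at chr14:46383520-46390669 (minus strand; this and the loci below are GRCm38, GENCODE vM21). It was counted at 0 to 1013 CPM in single Rgs5 > Pdgfra cells, with a median of 19.7, and at 0 to 1107 CPM in the other cells, with a median of 142.9. The ranges overlap almost fully, but the middle of the distribution was lower in the Rgs5 > Pdgfra cells. Summed counts gave 64.3 CPM (60.6 to 68.3) in the Rgs5 > Pdgfra cells and 172.9 CPM (167.9 to 178.1) in the others, a fold of 0.372 (0.348 to 0.398). A Bmp4 count was present in 67% of Rgs5 > Pdgfra cells and 92.2% of the others, or 61.4% and 90.5% at equal depth.

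Bmp5 encodes another activating BMP, of the same subgroup as the proteins of Bmp6 and Bmp7, and lies at chr9:75775364-75900310 (plus strand). Its single-cell levels ran from 0 to 774 CPM, median 70.5, in the Rgs5 > Pdgfra cells and from 0 to 987 CPM, median 181.9, in the other cells. The fold of summed counts was 0.509 (0.483 to 0.537), from 110.8 CPM in the Rgs5 > Pdgfra cells and 217.5 CPM in the others, just short of the 2-fold limit. It was counted in 87.7% of the Rgs5 > Pdgfra cells and 96.9% of the others, so it was the ligand gene counted in the most cells of both sets. Exons of Bmp5 and Bmp4 share bases with the opposite-strand genes Gm26903 (604 counts) and Gm15217 (38 counts), and whether the counting used strand is not given in the sources used here.

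Bmp3 encodes a divergent ligand known to oppose other BMPs and lies at chr5:98854415-98884396 (plus strand). It reached 0 to 1729 CPM, median 8.41, in the Rgs5 > Pdgfra cells, against 0 to 2280 CPM, median 24.8, in the others. Few cells carried most of it: 4 cells held 50% of its counts among the Rgs5 > Pdgfra cells and 23 cells among the others. The fold of summed counts was 0.287 (0.268 to 0.308), with 56.1 CPM in the Rgs5 > Pdgfra cells and 195.3 CPM in the others. Without the cells within 2-fold of the cut it was 0.0850.

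Gdf10, also called Bmp3b, encodes the ligand closest to that of Bmp3 and lies at chr14:33923587-33937983 (plus strand). Its median was 0 CPM in both sets, and the highest cell had 683 CPM among the Rgs5 > Pdgfra cells and 3291 CPM among the others. It was counted in 18.2% of Rgs5 > Pdgfra cells (13.2 to 24.2) and 38.1% of the others (32.2 to 44.4), or 13.5% and 29.2% at equal depth. Summed counts gave 6.13 CPM (5.01 to 7.43) and 59.5 CPM (56.6 to 62.6), a fold of 0.103 (0.0837 to 0.126). This fold rested on few cells, and without the 10 cells with the most Gdf10 it was 0.318. It was 0.0470 without the cells within 2-fold of the cut, 0.0601 after thinning and 0.0476 within the columns that lack Sftpc, described below.

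Grem1, the antagonist gene, at chr2:113746164-113758646 (minus strand), was counted at 0 to 1551 CPM, median 14.8, in the Rgs5 > Pdgfra cells and at 0 to 6691 CPM, median 129.2, in the others. Its upper quartile was 38.3 CPM in the Rgs5 > Pdgfra cells and 581 CPM in the others, so cells rich in Grem1 stood mainly on the Pdgfra side. The fold of summed counts was 0.197 (0.185 to 0.209), with 73.8 and 375.3 CPM in the Rgs5 > Pdgfra and the other cells. Of the 46 cells with the highest Grem1 level, 4 were Rgs5 > Pdgfra cells and 42 were not. Without the cells within 2-fold of the cut the fold was 0.110.

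The receptor gene Bmpr2, at chr1:59763400-59879014 (plus strand), was nearly even. Single cells ranged from 286.5 to 2812 CPM, median 1143, among the Rgs5 > Pdgfra cells and from 278.2 to 2831 CPM, median 1252, among the others. The fold of summed counts was 0.892 (0.876 to 0.908).

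The Id genes, Id1 at chr2:152736251-152737410 (plus strand), Id2 at chr12:25093799-25097140 (minus strand) and Id3 at chr4:136143497-136145755 (plus strand), differed among themselves. Id1 was counted in 38.4% of Rgs5 > Pdgfra cells (31.7 to 45.5) and 24.9% of the others (19.7 to 30.7), or 29.8% and 18.1% at equal depth. Its median was 0 CPM in both sets, and its highest cell had 237.01 CPM among the Rgs5 > Pdgfra cells and 139.9 CPM among the others. Summed counts gave 15.5 CPM (13.7 to 17.5) and 6.08 CPM (5.16 to 7.11), a fold of 2.55 (2.08 to 3.13).

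Id3, by far the most abundant of the Id genes, ranged from 14.9 to 1379 CPM, median 418.8, in the Rgs5 > Pdgfra cells and from 0 to 1488 CPM, median 360.5, in the others, with a fold of summed counts of 1.14 (1.10 to 1.17). Id2 ranged from 0 to 234.998 CPM, median 0, in the Rgs5 > Pdgfra cells and from 0 to 180.5 CPM, median 8.41, in the others. Its fold was 1.05 (0.917 to 1.19), an interval that holds 1.

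The Id1 difference between the sets was larger in cells with at least 2 endothelial markers than in the remaining cells. All 7 endothelial markers were counted in both sets, with summed single-cell levels of 0 to 3793 CPM (median 13.8) in the Rgs5 > Pdgfra cells and 0 to 4874 CPM (median 11.3) in the others. At least 2 of them were counted in 52 Rgs5 > Pdgfra cells and 57 other cells, and in these Id1 stood at 23.005 CPM (19.1 to 27.5) and 4.76 CPM (3.21 to 6.80). In the remaining cells Id1 stood at 12.2 CPM (10.3 to 14.3) in the Rgs5 > Pdgfra cells and 6.51 CPM (5.42 to 7.75) in the others, a fold of 1.87, below the 2-fold limit. Kdr, an endothelial receptor gene, was 26.1 CPM in the Rgs5 > Pdgfra cells and 12.2 CPM in the others, while Pecam1 was 8.79 and 14.5 CPM. Summed immune and epithelial marker levels were higher in the Rgs5 > Pdgfra cells, but the medians of single cells were closer. The 6 immune markers, all counted in both sets, summed to 133.6 CPM in the Rgs5 > Pdgfra cells (single cells 0 to 2903, median 11.4) and 35.7 CPM in the others (0 to 983, median 10.3). Without cells with at least 2 of them the Id1 fold was 2.39. The 8 epithelial markers, also all counted in both, summed to 1363 CPM (0 to 20960, median 710) and 841 CPM (0 to 23952, median 607). At least 2 of these 8 were counted in 73.4% of the Rgs5 > Pdgfra cells and 76.7% of the others. In cells with fewer than 2 epithelial markers Id1 stood at 16.8 CPM (12.98 to 21.4) in the Rgs5 > Pdgfra cells and 7.95 CPM (5.71 to 10.8) in the others. The part of RNA from these cell types in the Id1 difference was not tested.

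**Figure D2:**
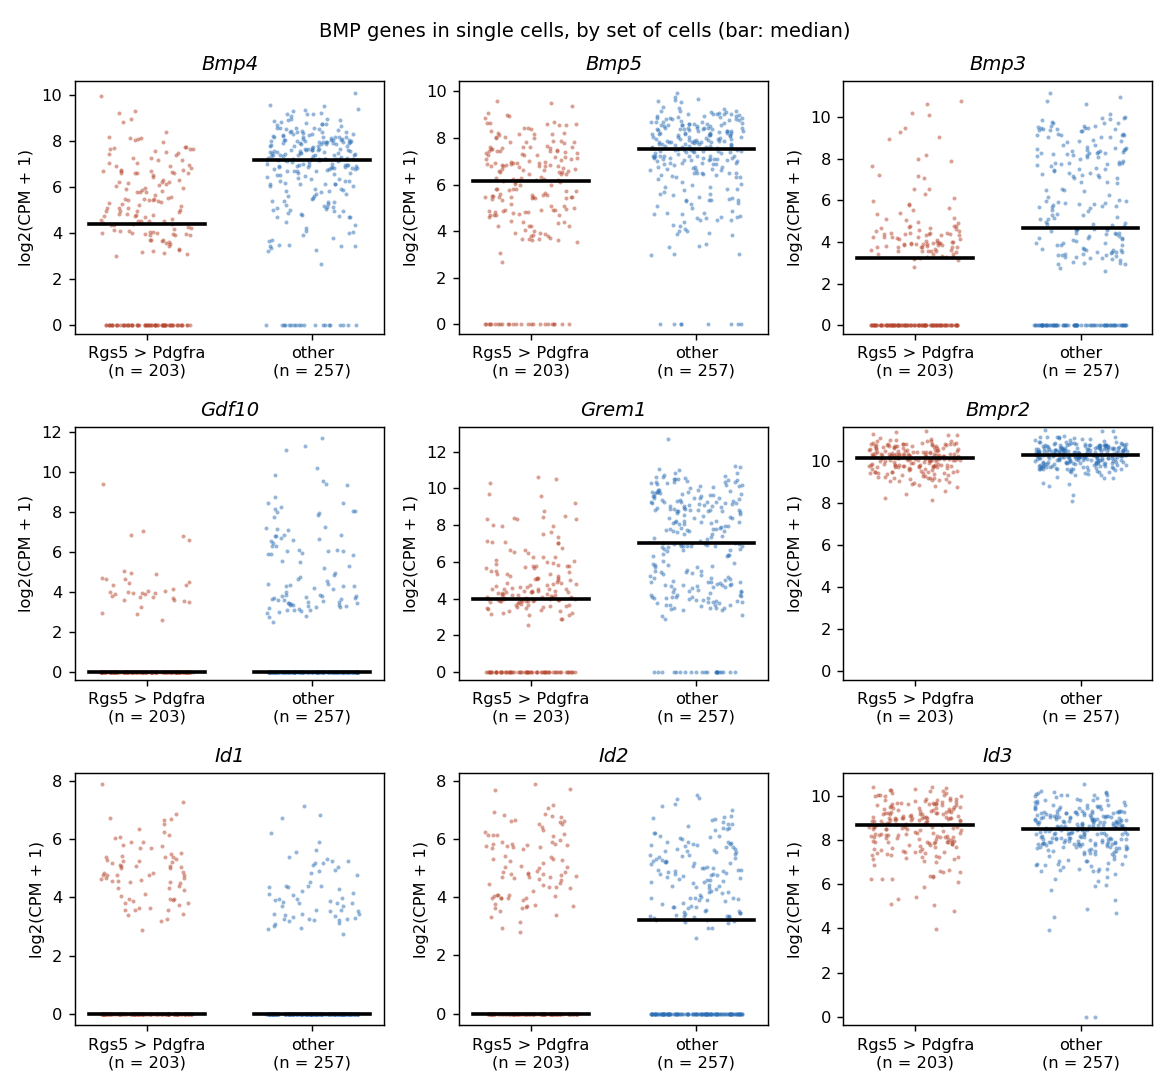
Level of each gene in single cells, as log2(CPM + 1), in the Rgs5 > Pdgfra cells (left, red) and the other cells (right, blue); each point is a cell and the bar is the median. The medians of Bmp4, Bmp5 and Grem1 sit lower in the Rgs5 > Pdgfra cells, and those of Bmpr2 and Id3 nearly level.

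All 9 genes passed the detection filter, and the split moved a minority of all genes past 2-fold. The median log2 fold of the 9 genes was -0.97, beside 0.02 over all 13975 genes tested. A lower fold than that of Gdf10 was found in 0.1002% of the genes, 0.530% a lower one than Grem1, 1.62% than Bmp3, 2.82% than Bmp4 and 5.48% than Bmp5. Id1 had a higher fold than 97.6% of genes. The cells were split on Rgs5 and Pdgfra, so genes that vary with either one shift with the split.

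Along the balance of Rgs5 to Pdgfra counts, Bmp4 was lower at each step towards Rgs5, with intervals that did not overlap. Gdf10 and Bmpr2 were also lower at each step, but some of their steps lay within counting error. The other 6 genes were not lower at each step. With the cells ordered by this balance and cut into 5 sets of 92, from the Pdgfra side to the Rgs5 side, Bmp4 stood at 195.7, 175.8, 133.3, 82.2 and 32.6 CPM. Bmp3 stood at 212.5, 230.001, 156.6, 51.6 and 9.25 CPM, and Grem1 at 433.7, 313.8, 347.6, 74.6 and 37.01 CPM, so for both the largest difference in CPM between neighbouring sets on the way down was from set 3 to set 4. Bmp5 stood at 257.3, 209.5, 173.7, 98.8 and 108.4 CPM and kept a higher floor. Gdf10 stood at 58.1, 57.3, 55.1, 6.17 and 4.004 CPM. Its intervals in sets 1 to 3 overlapped (53.4 to 63.1, 52.5 to 62.5 and 50.2 to 60.3). It was counted in 40.2% of the cells of set 1 and 45.7% of set 2, and 1 cell held 50% of its counts in set 3. Id1 stood at 6.08, 6.96, 5.52, 15.4 and 17.3 CPM, and Id3, between 377.9 and 490.2 CPM, and Id2, between 17.6 and 29.1 CPM, had no such order. Bmpr2 stood at 1346, 1316, 1235, 1212 and 1117 CPM, a small step each time, with overlapping intervals between sets 1 and 2 and between sets 3 and 4. These 5 sets were chosen after the data were seen.

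**Figure D3:**
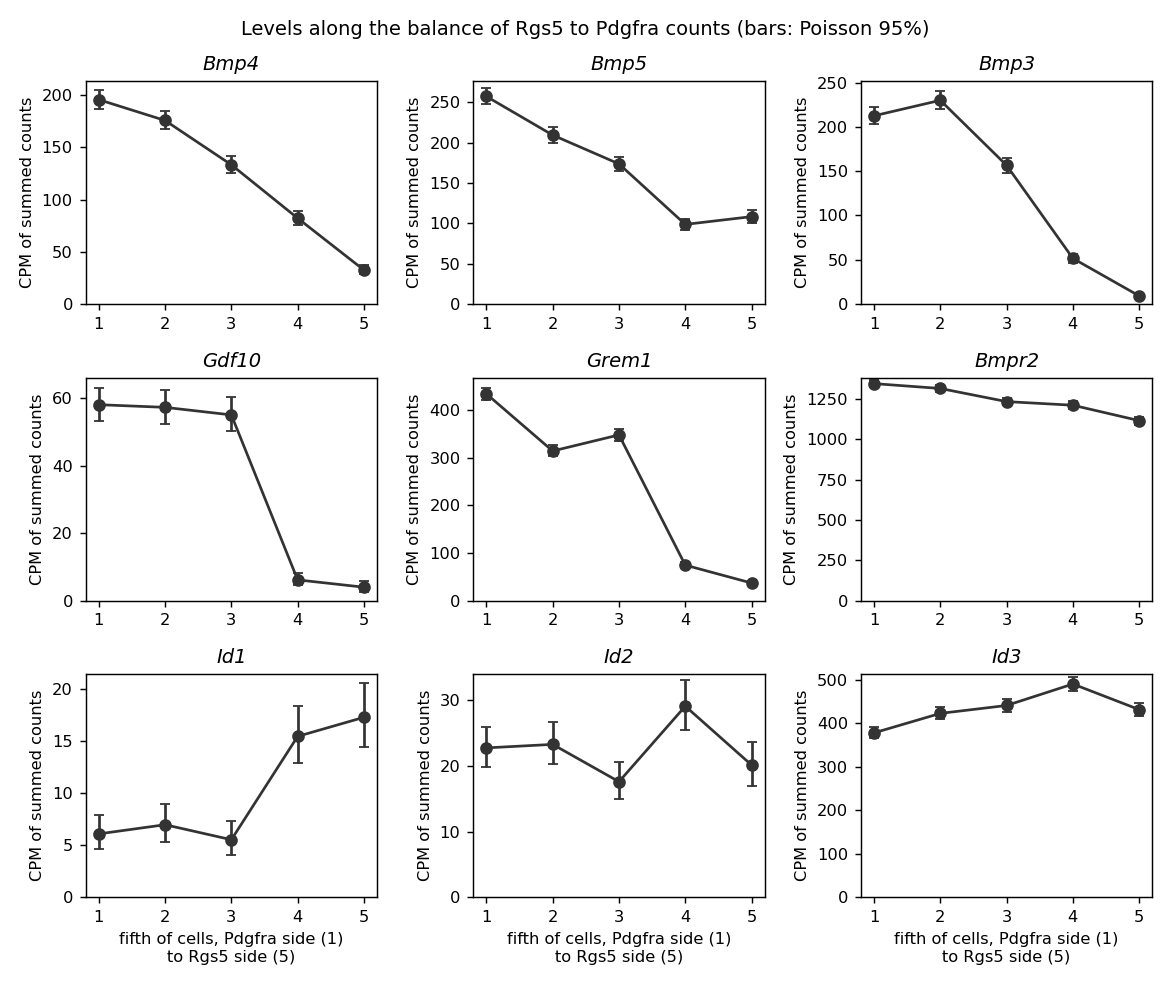
CPM of summed counts (vertical) in 5 sets of 92 cells ordered by the balance of Rgs5 to Pdgfra counts, from the Pdgfra side (1) to the Rgs5 side (5); bars are exact Poisson 95% intervals. Bmp4 goes down at every step to 32.6 CPM, Gdf10 drops between sets 3 and 4, and Id1 is highest in sets 4 and 5.

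Several ligand genes were counted together in many cells. Of Bmp3, Bmp4, Bmp5 and Gdf10, at least 3 were counted in 28.1% of the Rgs5 > Pdgfra cells (21.5 to 35.4) and 67.1% of the others (60.8 to 73) at equal depth, or 39.4% and 77.4% as deposited. None of the 4 was counted in 6.43% of the thinned Rgs5 > Pdgfra cells (11 cells) and 0.412% of the thinned other cells (1 cell). Grem1 was counted alongside Bmp4 in many cells. Among thinned Rgs5 > Pdgfra cells it was present in 60.95% (50.9 to 70.3) of those with a Bmp4 count and 51.5% (38.9 to 64.01) of those without, and among the others in 84.1% (78.6 to 88.7) and 82.6% (61.2 to 95.05). The intervals overlap within each set. The limit given above on a count of Gdf10 or Bmp3 in a cell holds for these shares too. Over all cells the shares of Bmp4 (81.1%) and Grem1 (81.7%) lay only just above that of Sftpc (80.9%). Their counts are therefore read with the same caution.

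The ligand genes and Grem1 varied together over all 460 cells, though most pairs with Gdf10 were weak. Spearman correlations of counts scaled to 10000 per cell were positive for all 10 pairs of these 5 genes, with a median of 0.300, and highest for Bmp4 with Bmp5 (0.425), Bmp3 with Bmp5 (0.379) and Bmp4 with Grem1 (0.370). These cells share their library preparation and differ in depth. After thinning to equal depth the median was 0.257, with Bmp4 and Bmp5 at 0.436 and Bmp4 and Grem1 at 0.352. The median of the 10 pairs was lower within each set, at 0.183 among the Rgs5 > Pdgfra cells and 0.167 among the others. Bmp4 with Bmp5 was 0.146 within the Rgs5 > Pdgfra cells and 0.391 within the others, and Bmp3 with Bmp5 was 0.232 and 0.348. Bmp3 with Gdf10 was 0.282 and 0.160. The other pairs of Gdf10 were near 0 within the sets. Gdf10 with Bmp4 was 0.051 and 0.046, with Bmp5 0.021 and 0.032, and with Grem1 -0.04 and 0.019. Bmp3 with Grem1 was 0.140 and 0.035.

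Ligand and target genes showed no such relation. The 15 pairs of an Id gene with a ligand gene or Grem1 ran from -0.12 to 0.02 over all cells, with a median of -0.05. Among the Id genes, Id1 with Id3 was 0.182, Id1 with Id2 0.081 and Id2 with Id3 -0.02. Bmpr2 correlated with the other 8 genes at -0.06 to 0.09. Counts of Id1 and Id2 are sparse, and weak values of this kind are no finding.

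**Figure D4:**
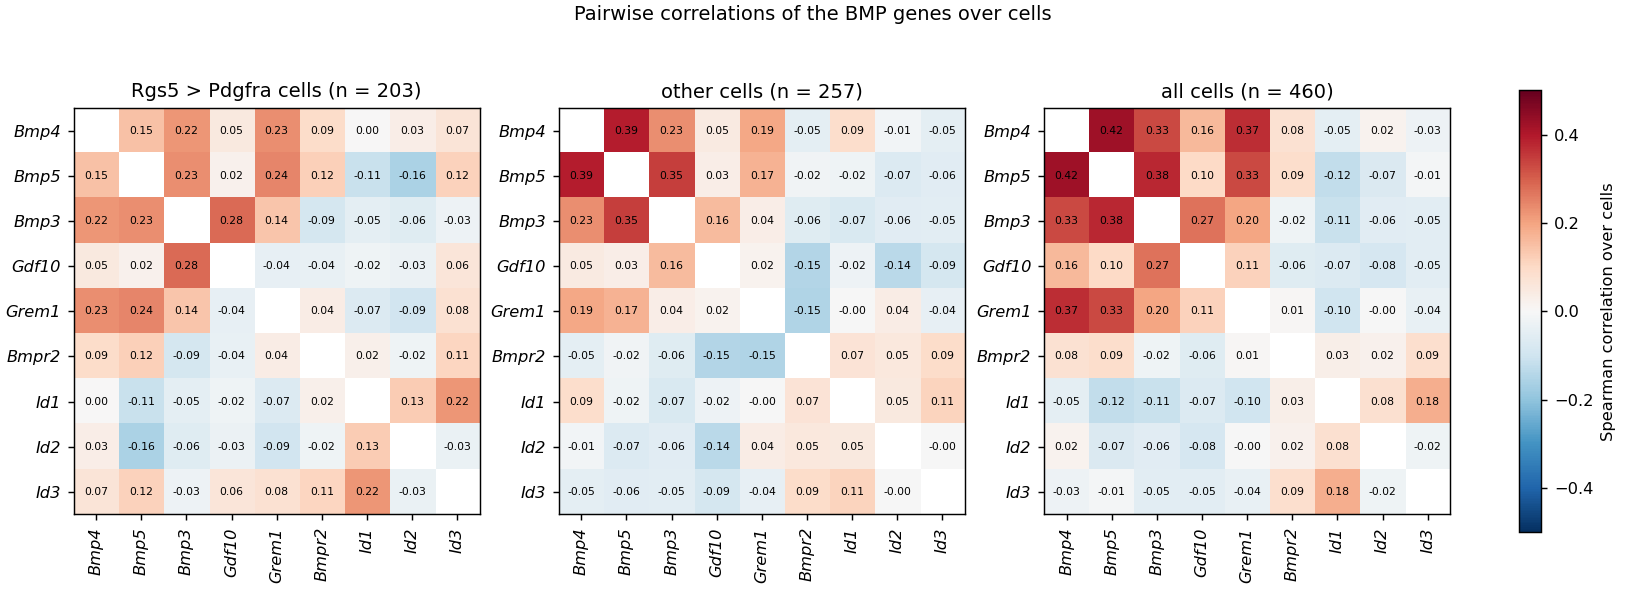
Spearman correlations over cells for each pair of the 9 genes, in the Rgs5 > Pdgfra cells (left), the other cells (middle) and all 460 cells (right); red is positive and blue negative, on a scale from -0.5 to 0.5. The 5 genes of ligands and Grem1 form a red block over all cells, with Bmp4 and Bmp5 at 0.425, that is paler within the sets, while pairs of an Id gene with a ligand gene or Grem1 lie between -0.12 and 0.02 over all cells. Id1 with Id3 stands out of the pale rows, at 0.220 within the Rgs5 > Pdgfra cells.

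The genes whose levels followed each member most closely were sought among 9700 named genes counted in at least 20% of cells. Bmp4, Bmp3 and Bmp5 shared neighbours: Igf1, encoding an insulin-like growth factor, correlated with them at 0.592, 0.519 and 0.486 and Fmo2, a flavin monooxygenase gene, at 0.579, 0.461 and 0.478. The third place went to Dcn (decorin, 0.515) for Bmp4 and Ltbp1 (a latent TGF-beta binding protein, 0.427) for Bmp3, and the first to Colec12 (a scavenger receptor, 0.494) for Bmp5. Grem1 lay nearest to Igfbp4 (0.513), Vcan (versican, 0.497) and Pdgfra (0.483), and Gdf10 to Col3a1 (0.350), Scn7a (0.336) and Loxl1 (0.327). At the other end stood Notch3 for Bmp4 (-0.50), Cspg4 for Bmp5 (-0.35), Cbfa2t3 for Grem1 (-0.47) and Sept9 for Bmp3 (-0.43) and Gdf10 (-0.33). Within the Rgs5 > Pdgfra cells and within the others, Bmp4 with Igf1 was 0.350 and 0.483, and Grem1 with Pdgfra 0.355 and 0.153. Grem1 with Igfbp4 was 0.267 and 0.235, and with Cbfa2t3 -0.245 and -0.228. Bmp4 with Notch3 was -0.18 and -0.27, and Bmp5 with Cspg4 -0.11 and -0.22. All of these pairs were weaker within each set than over all cells.

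Neighbours of the Id genes were weaker than those of the ligand genes and Grem1. Those of Bmpr2 were about as strong as those of Gdf10. Bmpr2 lay nearest to Unc5b (a netrin receptor, 0.373), Kcnmb2 (0.306) and Pxdn (peroxidasin, 0.296), and lowest with Lars2 (-0.27). Id3 lay nearest to Snai1 (a zinc finger repressor, 0.230), Dusp1 (a rapidly induced phosphatase gene, 0.213) and Fos (an immediate early gene, 0.203), and lowest with Sorl1 (-0.24). Id1 lay nearest to Bcl2l1 (0.232), Rcsd1 (0.232) and Coro2b (0.226), with Slc7a2 lowest (-0.24), and Id2 to Eef1a1 (0.237), Rack1 (0.214) and Ctnnal1 (0.213), with C1rb lowest (-0.21). Across 8 immediate early genes (Fos, Fosb, Jun, Junb, Egr1, Nr4a1, Ier2 and Atf3), Id3 correlated at 0.036 to 0.203, Id1 at 0.034 to 0.167 and Id2 at -0.03 to 0.034.

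Correlations with Dcn and Cxcr4 differed between the sets. Within the Rgs5 > Pdgfra cells Dcn correlated with Bmp3 at 0.344, Bmp4 at 0.274, Gdf10 at 0.217, Grem1 at 0.207 and Bmp5 at 0.164. Within the other cells it correlated with Bmp4 at 0.452, Bmp5 at 0.415 and Bmp3 at 0.305, and with Grem1 at 0.110 and Gdf10 at 0.0648. Cxcr4, a chemokine receptor gene, correlated within the Rgs5 > Pdgfra cells with Bmp4 at -0.36, Grem1 at -0.31, Bmp3 at -0.11 and Bmp5 at -0.03. Within the other cells it lay between -0.06 (Bmp4) and 0.04 (Grem1) for these genes. Dcn and Cxcr4 were chosen for this after the data were seen.

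The rest of the BMP pathway was followed in 56 further genes, of which 38 were counted in at least 10% of cells. In the Rgs5 > Pdgfra cells 10 of the 38 were past 2-fold lower and 1 past 2-fold higher, beside 5.26% and 3.98% of all genes. The median log2 fold of the 38 was -0.33. The 18 genes that did not pass the filter were mostly ligand and antagonist genes, 8 and 7 of them, with 3 target genes.

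Other activating ligand genes followed Bmp4. Bmp7 was 4.19 CPM in the Rgs5 > Pdgfra cells and 37.2 CPM in the others, a fold of 0.113 (0.0872 to 0.143). It was counted in only 18.9% of cells. Its fold was 0.330 in the columns that lack Sftpc and 0.0786 in those that hold it, both outside that interval. Bmp6 had 16.9 and 49.4 CPM (fold 0.342), and Bmp2 4.42 and 12.6 CPM (fold 0.350). Gdf11, a ligand gene nearer to the activin branch, was the only one of the 4 that passed the filter without a call, at 42.4 and 33.1 CPM (fold 1.28).

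Of 11 antagonist and modulator genes that passed the filter, 3 were past 2-fold lower and 8 were not, beside 5.26% of all genes past 2-fold lower. The median log2 fold of the 11 was -0.29. Fst, encoding the activin and BMP binder follistatin, had 99.4 CPM in the Rgs5 > Pdgfra cells and 269.04 CPM in the others (fold 0.370), and Nog, encoding noggin, 0.708 and 6.31 CPM (fold 0.112, interval 0.0567 to 0.201). The most abundant genes of this role per kilobase, Fstl1 (332.2 CPM per kb; fold 0.598) and Nbl1 (133.5 CPM per kb; fold 1.04), were not past 2-fold.

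Receptor and signal genes were mostly within 2-fold, with median log2 folds of -0.41 and -0.17, beside 0.02 over all genes. Past 2-fold lower were 2 of 11 receptor and co-receptor genes and 2 of 8 signal transducer genes, beside 5.26% of all genes. Of 11 receptor and co-receptor genes, Bmpr1b, a type I receptor gene, had 3.48 CPM in the Rgs5 > Pdgfra cells and 12.98 CPM in the others (fold 0.268), and Neo1, encoding neogenin, which binds co-receptors of the RGM family, had 148.8 and 298.2 CPM (fold 0.499, interval 0.477 to 0.522, at the limit). Eng (127.3 CPM per kb; fold 0.717) and Bmpr1a (36.9 CPM per kb; fold 0.842) were the most abundant. Of 8 signal transducer genes, Smad6, encoding an inhibitory Smad, had 19.3 CPM in the Rgs5 > Pdgfra cells and 47.7 CPM in the others (fold 0.404), and Smad9 16.04 and 32.4 CPM (fold 0.495, 0.430 to 0.569, at the limit). Smad4 (72.5 CPM per kb; fold 0.997) and Smad5 (54.1 CPM per kb; fold 0.889) were the most abundant.

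Among 4 target genes that passed the filter, Hey1, which is induced by Notch as well as by BMP signals, was 63.3 CPM in the Rgs5 > Pdgfra cells and 27.5 CPM in the others (fold 2.30, 2.09 to 2.53). In the columns that lack Sftpc its fold was 1.95, below the limit. Runx2 (15.9 CPM per kb; fold 0.751) and Atoh8 (13.3 CPM per kb; fold 1.01) were the most abundant per kilobase, and Msx1 had a fold of 0.927.

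**Figure D5:**
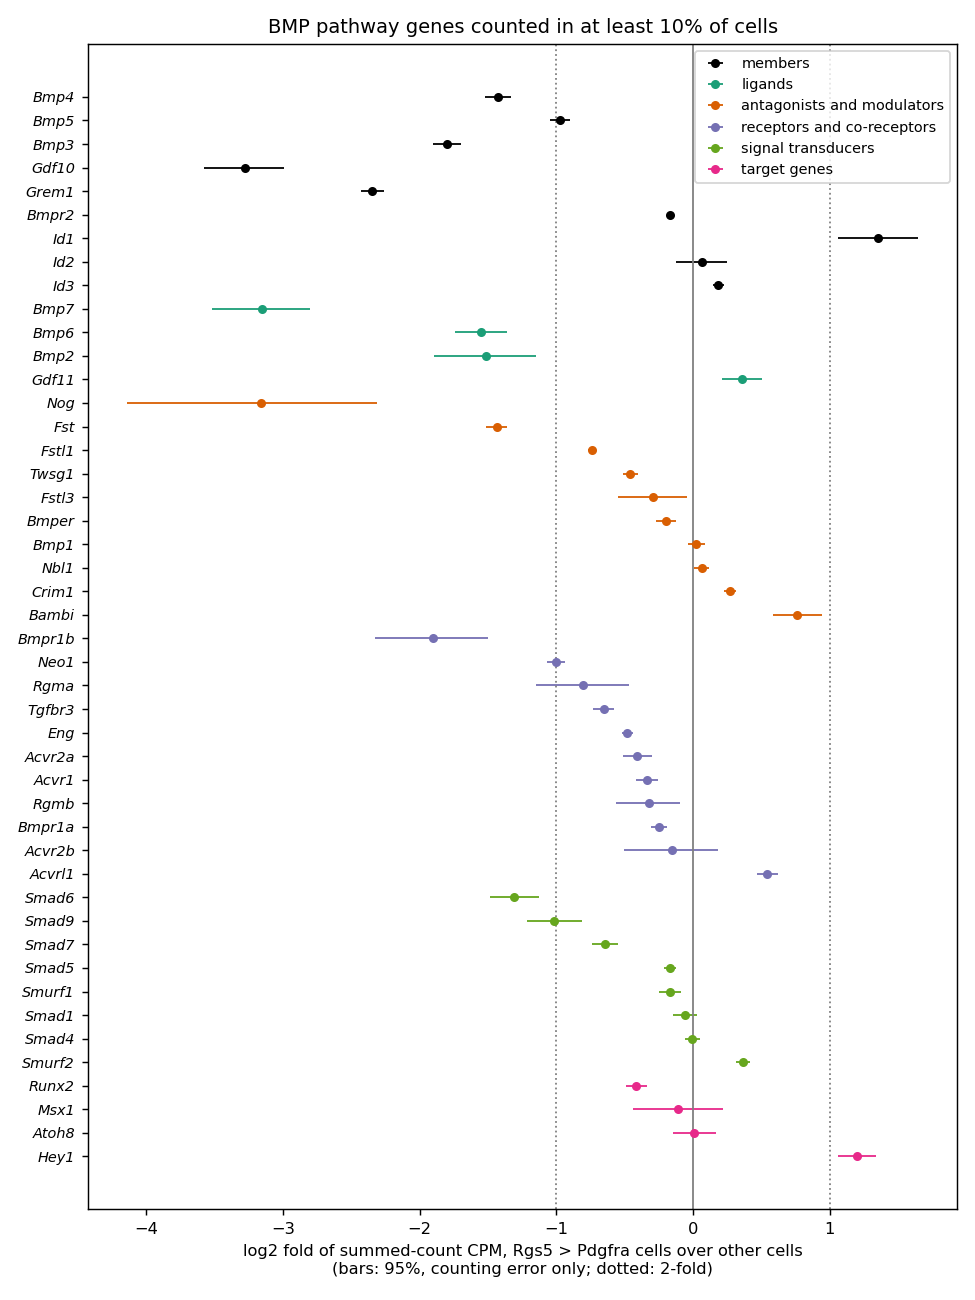
log2 fold of summed-count CPM, Rgs5 > Pdgfra cells over the others, for the 9 genes (black) and further BMP pathway genes by role; bars are 95% intervals of counting error and dotted lines mark 2-fold. Ligand and antagonist genes reach furthest to the left, with Gdf10 at a fold of 0.103, and Id1 and Hey1 lie right of the 2-fold line.

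The columns of the table fell into runs richer or poorer in Sftpc, a surfactant gene of epithelium, called here holding or lacking it. A column called lacking can itself hold Sftpc counts, since it was placed by its neighbours. By this rule 27.6% of the cells had mostly neighbours with under 30 CPM of it, and 72.4% did not. Rgs5 > Pdgfra cells made up 50.4% and 41.7% of these. The columns that lack Sftpc, against those that hold it, had 14.5 and 45.8 CPM of Gdf10, 144.6 and 184.6 CPM of Bmp5 and 531.9 and 398.4 CPM of Id3, while Grem1 (261.4 and 253.4 CPM), Bmp3 (141.2 and 139.5 CPM) and Bmpr2 (1266 and 1249 CPM) were close. The fold between the sets of cells kept its direction in both for Bmp4 (0.280 and 0.408), Grem1 (0.150 and 0.215), Bmp3 (0.274 and 0.290) and Bmp5 (0.574 and 0.499). For Id1 it was 1.74 in the columns that lack Sftpc, below the limit, and 2.91 in the others. The labels give no batch, and the part of these runs in the differences was not tested further.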

How the data were processed

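Molecular barcode counts per gene were deposited by the authors for 460 single cells, as whole numbers with no normalization, from libraries made by sonication and ligation per the labels' protocols. STAR, HTSeq and mm10 are named in the submitters' processing notes; versions, annotation and the counting of barcodes are not given in the sources used here. Total counts per cell (25029 to 240496) limit the precision, and exact Poisson and Clopper-Pearson intervals cover counting error only, since cells are not replicates and barcode counts are taken as independent molecules.

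From these counts, CPM was computed from summed counts, and folds are ratios of CPM (called past 2-fold), among genes counted in at least 10% of cells. For 119 repeated symbols the row with the most counts kept the symbol. Spearman correlations used log1p of counts scaled to 10000 per cell. No doublet caller was run, so any doublets remain. Thinning used 1 seeded draw. Exon lengths and positions came from GENCODE vM21 (GRCm38), which matched 48058 genes, and promoters from RefSeq (GRCm38.p6), which held 7 of the 9 genes; Bmp3 and Id1 are named only. Columns lacking Sftpc are those where over 50% of the 20 nearest columns, by the cell number in the titles, had under 30 CPM of it.

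The genes named are the 9 members, Rgs5 and Pdgfra, pathway genes past 2-fold or the 2 most abundant per kilobase of each role, and for each member the 3 genes with the highest correlation and the 1 with the lowest. Some items are counted in the totals or labels but not reported here by name. The members, lists and cut were chosen with earlier results of these data known. Kdr, Pecam1, the markers at the ends of ranges, Dcn, Cxcr4, Gm26903, Gm15217, Msx1 and Gdf11 were named after their values were seen. Size factors came from scran 1.30.0 in R 4.3.3, figures from matplotlib 3.10.9, intervals from scipy 1.17.1 and the rest from pandas 2.3.3 and numpy 2.4.6 in Python 3.11.15, and fold and correlation steps were tested on simulated data. Alternatives changed the fold, depth, cells kept, the cut, the columns, the fold limit, the filter and the correlation.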

Additional observations from a re-analysis of the deposited data

How the results depend on the processing

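No paired analysis was possible because the series has 1 group and each replicate number names a cell. The 4 members past 2-fold lower (Bmp3, Bmp4, Gdf10 and Grem1) were 4 or 5 members in each of the 11 alternatives run on that count, and the pathway genes past 2-fold lower numbered 8 to 14, beside 10. One of these alternatives used a looser 1.5-fold limit. The share of all genes past the limit was not computed for the alternatives. The 1 member past 2-fold higher, Id1, became 0 in the columns that lack Sftpc (fold 1.74) and 0 without cells with 2 endothelial markers (fold 1.87). Leaving out cells with endothelial or immune markers, or the 10 cells richest in a member, was chosen after the data were seen. The 1 pathway gene past 2-fold higher, Hey1, became 0 in the columns that lack Sftpc and 2 genes at a 1.5-fold limit, which is the looser limit by construction. The median correlation of the ligand genes and Grem1, 0.300 over all cells, was 0.183 within the Rgs5 > Pdgfra cells and 0.167 within the others. The share of Rgs5 > Pdgfra cells, 44.1%, was 37.4% when Rgs5 had to reach 2 times Pdgfra. The cause was not tested except where the alternative's own construction shows it. Across 10 alternatives the fold of Bmp4 ran from 0.280 to 0.408, Grem1 from 0.110 to 0.243, Bmp3 from 0.0850 to 0.330, Gdf10 from 0.0470 to 0.318, Bmp5 from 0.452 to 0.574, Bmpr2 from 0.879 to 0.927, Id3 from 1.08 to 1.19, Id2 from 0.758 to 1.20 and Id1 from 1.74 to 2.91. Bmp5 passed the 2-fold limit without the cells within 2-fold of the cut, in the columns that hold Sftpc, without the cells with over 50 CPM of both Hand2 and Hoxa10, and without cells with 2 endothelial markers. Low counts limit Id1 (9.83 CPM over all cells) most, then Id2, then Gdf10 (1631 counts). Most counts of Gdf10 were also held by few cells.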

Other observations

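Some of the cells richest in one ligand gene were also among the richest in another, where each list of 46 cells holds 10% of all cells. Of the 46 cells with the highest level of Bmp3, 14 were also among the 46 highest for Bmp4 (30.4% of each list), 13 for Bmp5 and 9 for Gdf10. Bmp4 and Grem1 shared 10 such cells, Id1 and Id3 shared 9, and Grem1 and Bmpr2 shared 0. Of the 46 highest cells, 32 were Rgs5 > Pdgfra cells for Id1, 25 for Id3, 24 for Id2 and 21 for Bmpr2, while for Bmp3, Bmp4, Bmp5, Gdf10 and Grem1 the number was 4 to 8, so that most of each of these lists lies among the other cells. The share of 10% does not allow for this, and sharing within each set was not tested.

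There were 12 cells with over 50 CPM of both Hand2 and Hoxa10, both transcription factor genes, and 2 of them were Rgs5 > Pdgfra cells. Grem1 stood at 38.6 CPM (28.4 to 51.4, exact Poisson) in these 12 cells and 261.7 CPM (256.8 to 266.7) in the rest, Bmp5 at 101.1 CPM (84.04 to 120.6) and 177.2 CPM (173.1 to 181.3), and Bmp4 at 160.3 CPM (138.6 to 184.4) and 128.8 CPM (125.4 to 132.3). The richest of the 12 cells for each gene held 48.2% of their Bmp4 counts, 65.96% of their Grem1 counts and 34.1% of their Bmp5 counts. By the median cell, Bmp4 was 30.6 CPM in the 12 cells and 71.7 CPM in the rest, the opposite direction from the sums, Grem1 24.6 and 33.8 CPM, and Bmp5 20.5 and 128.1 CPM. A Grem1 count was present in 75% of the 12 cells and 81.9% of the rest.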
